A study of Danio rerio with 4 samples.

Results

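Eph receptors, ephrins, netrins, Unc5 receptors and DCC are families of axon guidance molecules, and their RNA was measured in the OMP and TRPC2 classes of olfactory sensory neurons (OSNs) of zebrafish embryos. Genes were taken by symbol, ignoring upper and lower case, where the symbol began with epha, ephb, efna, efnb or ntn and a digit, or with unc5, or was dcc. This gave 44 of the 29029 genes in the deposited table, 36 of them with a lower-case symbol and the others in upper case, as in DCC or EFNA4. They comprised 9 EphA receptors, 8 EphB receptors, 9 ephrin-A ligands, 5 ephrin-B ligands, 5 netrins, 6 Unc5 receptors and DCC. The remaining symbol, unc50, fits the spelling but names a Golgi protein rather than an Unc5 receptor. It was left out of the gene classes and of the values over 43 receptors and ligands. Counts over all 44 genes, and over the 38 with a mean of 1 RPM or more in either class, include it.

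RNA-seq was carried out on cells sorted by fluorescence from dissected olfactory epithelia at 48 hpf, in embryos of the Tubingen/TLF strain raised at the same temperature. Embryos carried a transgene that puts RFP under control of omp, a gene of ciliated OSNs (OMP class), or one that puts Venus under control of trpc2, a gene of microvillous OSNs (TRPC2 class). Cells with RFP alone or Venus alone were collected, pooled, and made into 2 libraries of each class. RNA of OMP cells went through 1 round of T7 amplification and RNA of TRPC2 cells through 2 rounds. The paper also reports fewer sorted cells for each TRPC2 sample than for either OMP sample. Class, number of cells and amplification therefore cannot be told apart.

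Eph receptors are receptor tyrosine kinases on the cell surface. EphA receptors bind mainly ephrin-A ligands, which are held in the membrane by a lipid anchor, and EphB receptors bind mainly ephrin-B ligands, which cross the membrane and can signal back into the cell that carries them. Contact between an Eph and an ephrin often repels a growing axon, and in the mouse ephrin-A ligands on OSN axons take part in placing glomeruli. Netrins are secreted or matrix proteins that attract axons through DCC and its relative neogenin and repel them through Unc5 receptors, and in zebrafish embryos netrin and DCC guide OSN axons on their way to the olfactory bulb.

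The 4 libraries differed in depth and in the other cells whose RNA they held. Counts assigned to genes totalled 68098416 and 84599818 for OMP 1 and OMP 2, and 49483362 and 60189797 for TRPC2 1 and TRPC2 2. At least 1 read was seen for 25437 and 25542 genes of OMP neurons but for 17885 and 17991 of TRPC2 neurons. Levels are the deposited RPM, read counts scaled to a common library total, and are given for OMP 1, OMP 2, TRPC2 1 and TRPC2 2 in that order. The OMP gene ompb stood at 185.06, 217.90, 0.24 and 6.95 RPM and trpc2b at 2.80, 3.82, 13.50 and 24.17 RPM, so these did not overlap between classes and were on the labelled side, whereas trpc2a, at 1.44, 1.56, 11.43 and 0.21 RPM, overlapped. Red blood cell genes (13 of 20 listed symbols were in the table) summed to 10900 and 109000 RPM against 0.34 and 6.03 RPM, and in TRPC2 neurons 10 of the 13, hbae3 and gata1a among them, had no read. Skin and periderm genes (12 of 12) summed to 3460 and 5370 against 1430 and 647 RPM, and brain and glia genes (13 of 13) to 1380 and 1360 against 235 and 254 RPM. The 9 neuronal genes in the table (10 listed) summed to 2670 and 1790 against 3080 and 5240 RPM, and pigment cell and neural crest genes (15 of 16) to 144 and 154 against 1410 and 4740 RPM, with tyrp1b and dct at 0 in both TRPC2 libraries. One gene, gch2 (16.77 and 28.15 against 1279.22 and 4520.51 RPM), made up most of that TRPC2 sum, and 6 genes of the list were higher in both TRPC2 libraries and 6 in both OMP libraries. In sorted pools such as these, fewer cells of a type and less RNA per cell cannot be told apart, and the part of these other cells in the values that follow was not tested except where a value is given.

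Most of the guidance genes had a higher RPM in OMP neurons, but so did most genes of the table. Both OMP libraries stood above both TRPC2 libraries for 30 of the 44 genes (68.2%), against 53.3% of all 29029 genes. Both TRPC2 libraries stood above both OMP libraries for 3 of the 44 (6.82%), namely epha7, ephb3a and DCC, against 5.61% of all genes, and on the TMM scale efna1a and unc50 joined them to make 5. Among genes with a mean of 1 RPM or more in either class the members gave 26 and 2 of 38, against 55.9% and 8.89% of 16859 genes. The ratio of class means, computed on RPM + 0.1, had a median log2 of 1.90 over these 38 genes, 34 of them above 0 (89.5%). Over the 16859 genes it was 0.92, with 74.2% of them above 0. All 38 reached a mean of 1 RPM in OMP and 23 did in TRPC2, against 16294 and 12431 of the 16859 genes. The cutoff itself placed genes that reached it in OMP alone above 0, so the gap between these medians supports nothing about guidance genes.

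No guidance gene passed the class test at an adjusted p of 0.05, nor did any gene of the table. The test was edgeR's quasi-likelihood test with Benjamini-Hochberg adjustment over all 21026 genes tested (0% called in either direction), and fold changes are OMP over TRPC2 after TMM scaling. At an unadjusted p under 0.05 there were 10 guidance genes higher in OMP and 2 higher in TRPC2, against 23.3% and 7.18% of all genes tested. All 44 were tested, but 9 passed the filter on low counts through the OMP libraries alone, and 8 of the 10 were among those 9. The filter itself placed these higher in OMP, so their number supports nothing. Outside those 9, ephb4a had 1 TRPC2 library above the filter and also needed the OMP libraries to pass it. Over all genes tested 4664 passed through the OMP libraries alone, and 4194 of them had an unadjusted p under 0.05 with OMP higher. Fitted log2 fold changes were above 0 for 32 genes and below 0 for 12, with a median of 1.15 beside 0.49 over all genes tested, and 28 lay above that all-gene median and 16 below it. Fitted fold changes of genes with 3 reads or fewer in TRPC2 depend on the model and are no bound, so for guidance genes a counting ratio is given beside them.

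Other tools made calls. DESeq2 gave an adjusted p under 0.05 to 8 members higher in OMP (efna3b, EFNA4, efnb1, efnb3b, ephb2a, ephb4a, ephb6 and ntn1b) and 2 higher in TRPC2 (epha7 and ephb3a), of 41 with an adjusted p, against 14.3% and 6.34% of 19395 genes. Of these 8, 6 had passed the filter through the OMP libraries alone, and ephb4a, with 1 TRPC2 library above it, needed them too. Limma on log2(RPM + 0.5) called 12 and 0 of 44, against 23.5% and 0.785% of all genes tested, and 7 of the 12 had passed through OMP alone. Among its other calls epha4l, ephb4a, unc5a and unc5db had 1 TRPC2 library above the filter and needed the OMP libraries too. These calls support nothing about such genes. The edgeR count depended on the TRPC2 libraries. Without TRPC2 1 it became 17 higher in OMP and 5 higher in TRPC2, against 32.6% and 16.4% of all genes, and without TRPC2 2 it became 23 and 6, against 34.9% and 15.8%, with 6 of the 17 and 7 of the 23 among the 9 genes that passed through OMP alone. Such a fit takes the spread from the OMP pair and assigns it to the lone TRPC2 library. It also filters on low counts anew with 1 TRPC2 library, so genes beyond those 9 entered through OMP alone. Without TRPC2 1 these included epha8 and ntn4, with no read in TRPC2 2. Without TRPC2 2 they included ephb1, with no read in TRPC2 1. The counts of these fits therefore support nothing about such genes. Leaving out either OMP library left 0 and 0.

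**Figure D1:**
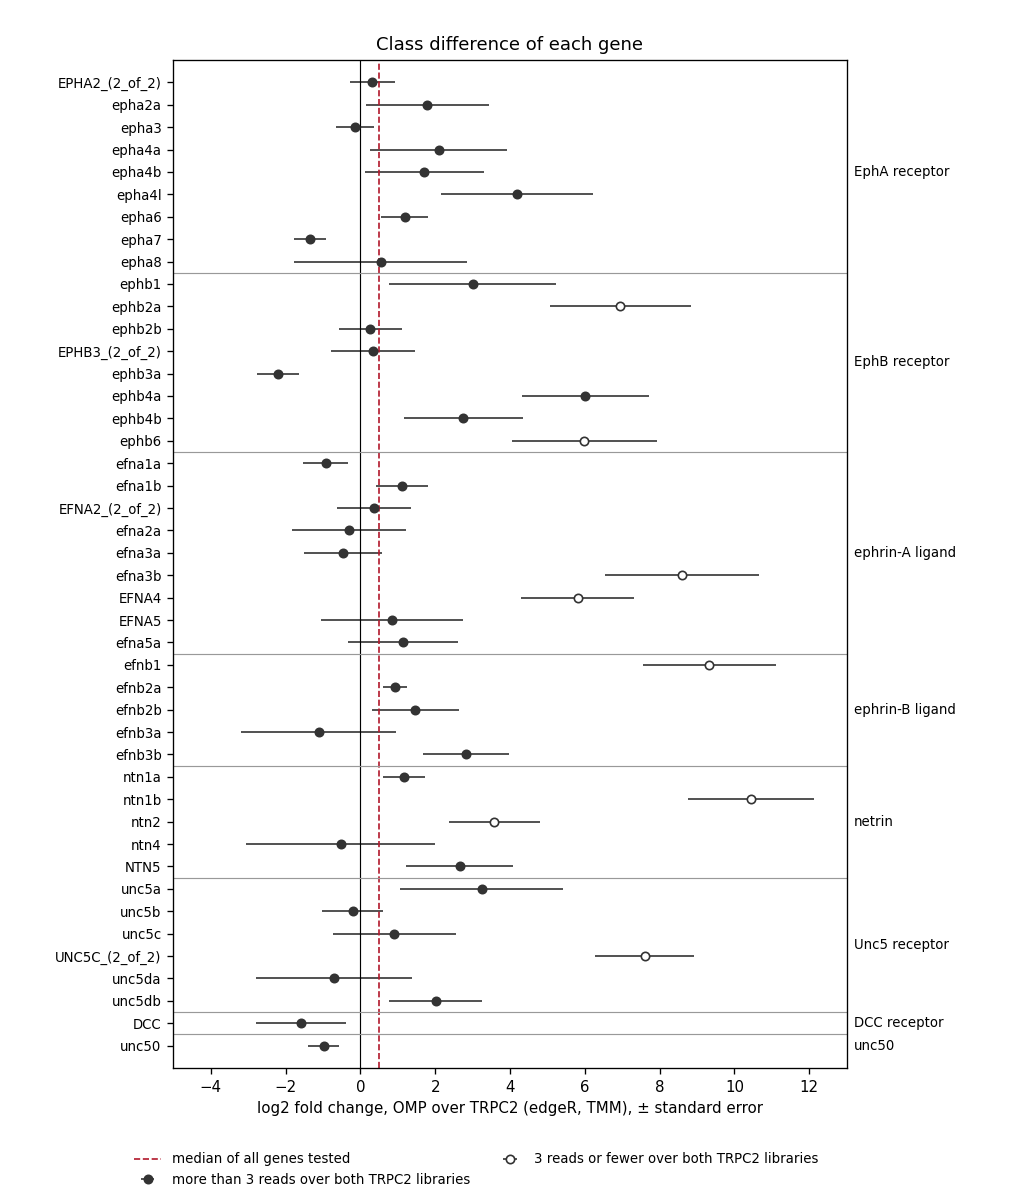
Log2 fold change of each gene, OMP over TRPC2, from edgeR with TMM scaling. Points are estimates and bars are ± 1 standard error, derived from the F statistic of the test with 2 libraries a class. Open points are genes with 3 reads or fewer over both TRPC2 libraries, and the dashed line is the median of all genes tested (0.49). The negative estimates with the shortest bars are epha7 (-1.35) and unc50 (-0.98), ephb3a has the lowest estimate (-2.20), and ntn1b the highest (10.44).

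The OMP libraries held reads of all 9 EphA receptors, and 7 of the 9 did not overlap between classes with OMP higher (77.8%, against 53.3% of all genes). The exception in the other direction was epha7, a receptor with roles in axon mapping and cell adhesion in the mouse. Its RPM was 17.14 and 14.18 in OMP and 21.12 and 24.96 in TRPC2, so both TRPC2 libraries were higher under each of the 4 scalings tried. The log2 fold change of epha7 was -1.35 with a standard error of 0.43 (edgeR, unadjusted p = 0.0277, adjusted p = 0.111), and it ran from -1.64 to -1.18 when single libraries were left out. DESeq2 gave epha7 an adjusted p of 0.0334. EdgeR gave 0.157 with a filter of at least 100 counts in 2 libraries, and 0.333 with replicate number as a block. The difference was smaller with library totals only (log2 fold change -0.66, edgeR adjusted p = 0.506) and with limma on log2(RPM + 0.5) (-0.54, adjusted p = 0.322).

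The EphA row with most reads in OMP was epha2a, 1 of 2 zebrafish rows named for EphA2, a receptor found in many epithelia. Its RPM was 37.44 and 36.82 in the OMP libraries but 12.63 and 0.20 in the TRPC2 libraries. The OMP values were within 1.02-fold of each other, whereas the TRPC2 values differed 62.6-fold. The log2 fold change of epha2a was 1.79 with a standard error of 1.64 (edgeR adjusted p = 0.546). It was 6.56 without TRPC2 1 and 0.81 without TRPC2 2, so its size turned on a single library. The second row, EPHA2_(2_of_2), had 21.06 and 15.35 against 6.27 and 10.54 RPM, and the TMM scale made its classes overlap.

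Other EphA receptors had the same kind of spread in TRPC2. Receptors of the EphA4 type bind ligands of both classes. For epha4a the values were 16.47 and 16.21 against 0.06 and 4.26 RPM, and for epha4b 9.95 and 4.52 against 0.15 and 2.34 RPM. The gene epha4l, named for its likeness to epha4, was at 0.95 and 2.21 against 0.10 and 0 RPM. Each of these was higher in both OMP libraries. The receptor epha6 had 22.90 and 18.60 against 6.96 and 3.75 RPM, a 3.88-fold ratio of means, with TRPC2 libraries 1.86-fold apart. For epha3, a receptor for ephrin-A5 in retinal axons of the chick, the values were 29.24 and 28.35 against 25.41 and 11.93 RPM, and its classes overlapped under the other 3 scalings. The classes overlapped at epha8, with 1.89 and 0.61 against 1.02 and 0 RPM.

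The make-up of the EphA reads within a library does not depend on its scaling. Reads of epha7 made up 10.9% (95% Clopper-Pearson interval 10.4 to 11.4%) and 10.4% (9.88 to 10.9%) of EphA reads in the OMP libraries. In the TRPC2 libraries they made up 28.7% (27.6 to 29.8%) and 43.0% (41.7 to 44.4%). These intervals cover counting error only, since amplified reads are not independent molecules. Shares of epha2a were 23.8 and 26.9% in OMP and 17.1 and 0.348% in TRPC2, and those of epha6 were 14.6 and 13.6% against 9.44 and 6.46%. Reads of epha3 made up 18.6 and 20.7% against 34.5 and 20.6%, and overlapped.

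One EphB receptor, ephb3a, was higher in both TRPC2 libraries, and 6 of the other 7 were higher in both OMP libraries. These are 12.5% and 75.0% of the 8 EphB genes, against 5.61% and 53.3% of all genes. EphB3 receptors take part in axon guidance and cell sorting in the mouse. The RPM of ephb3a was 20.93 and 17.05 in OMP and 29.55 and 70.50 in TRPC2, with no overlap under each of the 4 scalings. Its log2 fold change was -2.20 with a standard error of 0.57 (edgeR, unadjusted p = 0.0137, adjusted p = 0.0746), and it lay between -2.86 and -1.38 when single libraries were left out. DESeq2 gave ephb3a an adjusted p of 0.0152. With edgeR it was 0.126 with a filter of at least 100 counts in 2 libraries, and 0.0799 with replicate number as a block. With library totals only the log2 fold change of ephb3a was -1.44 (edgeR adjusted p = 0.158) and with limma on log2(RPM + 0.5) it was -1.25 (adjusted p = 0.162). The related row EPHB3_(2_of_2) was at 5.29 and 2.45 against 1.58 and 1.96 RPM, so by RPM the 2 rows named for EphB3 stood on opposite sides, while on the TMM scale EPHB3_(2_of_2) overlapped. If reads of near-identical stretches were shared between such copies, their separate values are uncertain.

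Within the EphB family ephb3a took most of the reads of TRPC2 neurons. It held 26.6% (25.7 to 27.6%) and 30.6% (29.5 to 31.8%) of EphB reads in OMP, and 82.8% (81.4 to 84.1%) and 78.1% (77.2 to 79.0%) in TRPC2. The share was thus alike in the 2 libraries of a class and far apart between classes, although the summed EphB level differed 2.53-fold between the TRPC2 libraries. The OMP reads were spread over more genes, with ephb2b at 37.0 and 25.7%, ephb4a at 10.1 and 14.9%, and ephb4b at 10.5 and 17.9%. Neuronal genes were also higher in both TRPC2 libraries for 5 of 9 (55.6%, against 5.61% of all genes), and their part in the ephb3a and epha7 values was not tested.

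Among the EphB receptors with OMP higher, ephb2a, ephb4a and ephb6 reached an unadjusted p under 0.05 in edgeR. EphB4 is the receptor of venous endothelium for ephrin-B2, and ephb4a had 7.98 and 8.29 RPM in OMP against 0.14 and 0.01 RPM in TRPC2, where it rested on 12 and 1 reads. The ratio of means of ephb4a was 110-fold and its log2 fold change 6.01 with a standard error of 1.70 (edgeR, unadjusted p = 0.0184, adjusted p = 0.0868). DESeq2 gave ephb4a an adjusted p of 6.32e-05. Only 1 TRPC2 library lay above the filter on low counts, so ephb4a needed the OMP libraries to pass it, and these p-values are a description. The log2 fold change of ephb4a was 8.37 without TRPC2 1 and 5.15 without TRPC2 2. Endothelial genes (13 of 13) summed to 60.9 and 36.3 RPM in OMP and to 8.79 and 6.54 in TRPC2. Most of the OMP sum came from she (29.18 and 17.25 against 6.0 and 0 RPM) and cldn5b (12.04 and 8.32 against 1.65 and 4.98 RPM). Of the 13 genes 12 did not overlap with OMP higher (92.3%, against 53.3% of all genes), and kdrl, fli1a and egfl7 had no read in TRPC2. The part of endothelial genes in the ephb4a values was not tested. The values of ephb4b were 8.25 and 9.97 against 0.09 and 1.45 RPM.

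EphB2 is a receptor of synapses and commissural axons in the mouse. For ephb2a the values were 2.20 and 0.72 against 0 and 0.01 RPM, a count of 1 read in TRPC2, which gave a ratio of 250 with a counting interval of 44.6 to 9910. Counting intervals are 95% exact binomial intervals on pooled reads and cover neither the spread between libraries nor amplification. Its edgeR adjusted p was 0.0804 and its log2 fold change 6.95 with a standard error of 1.89. The other copy, ephb2b, had 29.06 and 14.31 against 4.30 and 16.07 RPM and was the EphB gene whose classes overlapped. EphB6 lacks kinase activity in mammals, and ephb6 was at 2.17 and 1.69 against 0.03 and 0 RPM, a ratio of 111 with a counting interval of 37.7 to 540 (log2 fold change 5.99, standard error 1.93, edgeR adjusted p = 0.116). Both ephb2a and ephb6 passed the filter through the OMP libraries alone, so their p-values are a description. Their log2 fold changes were 5.89 and 10.4 without TRPC2 1 and 10.04 and 5.05 without TRPC2 2. The gene ephb1, whose mouse counterpart directs retinal axons at the midline, had 2.71 and 1.18 against 0 and 0.27 RPM.

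**Figure D2:**
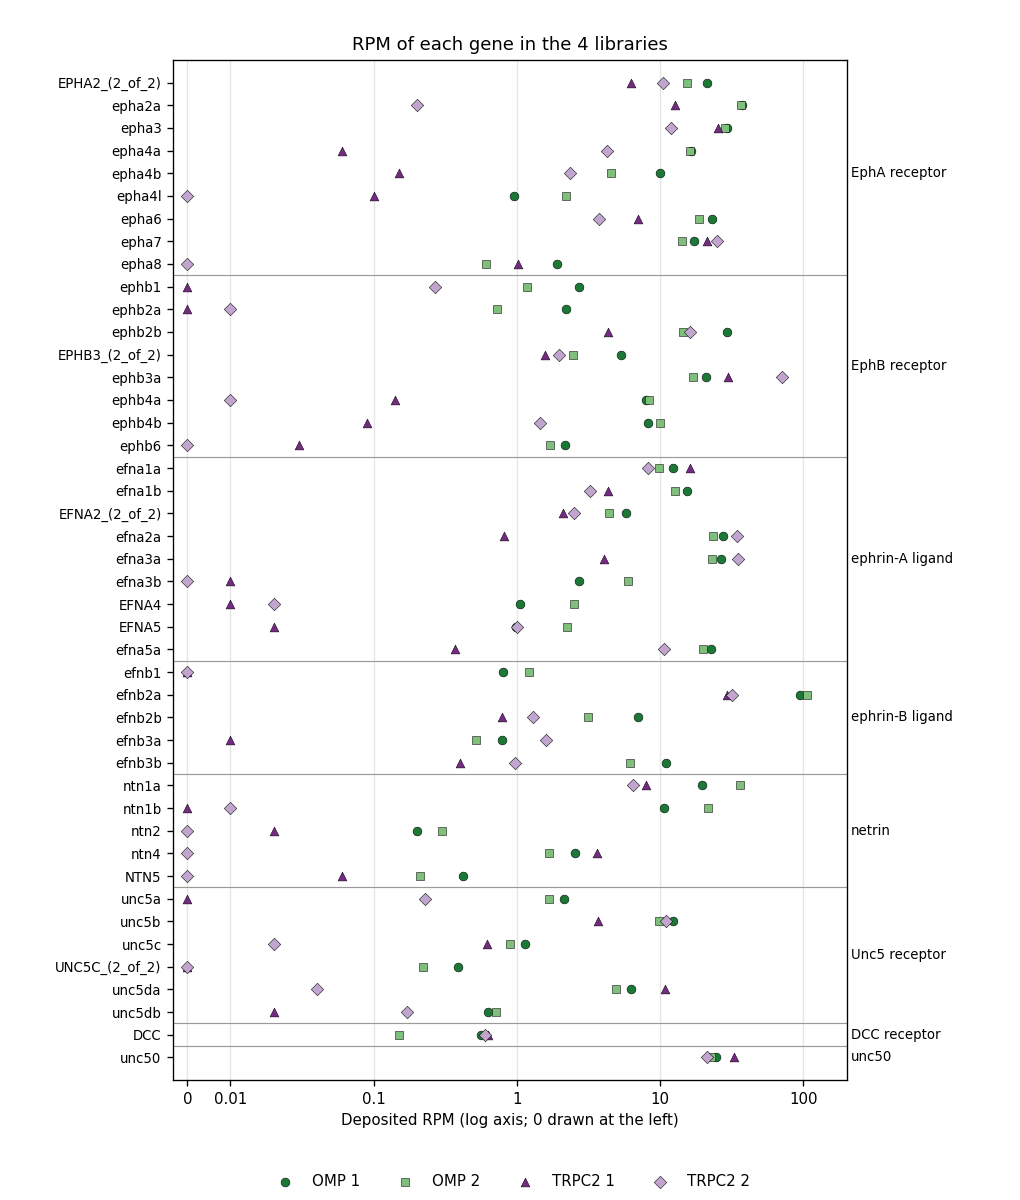
Deposited RPM of each of the 44 genes in each library on a log axis, with 0 drawn at the left; circles and squares are the 2 OMP libraries, triangles and diamonds the 2 TRPC2 libraries. OMP symbols lie close together for most genes, TRPC2 symbols lie far apart for many, and both TRPC2 symbols lie to the right of both OMP symbols for epha7, ephb3a and DCC.

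Of the 9 ephrin-A ligands, 5 were higher in both OMP libraries, none in both TRPC2 libraries by RPM, and 4 overlapped. The share with OMP higher (55.6%) was near that of all genes (53.3%). Ephrin-A2 and ephrin-A5 form gradients that map retinal axons in the tectum. The row with most ephrin-A reads in OMP was efna2a, with 27.43 and 23.21 RPM in OMP neurons against 0.81 and 34.49 RPM in TRPC2 neurons. Its log2 fold change was -0.31 with a standard error of 1.53 (edgeR adjusted p = 0.924). Leaving out TRPC2 1 gave -1.41 and leaving out TRPC2 2 gave 4.21, so for efna2a the direction of the difference turned on a single library.

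The values of efna3a followed the same course, with 26.43 and 23.10 against 4.06 and 34.81 RPM. Those of efna5a were 22.64 and 20.05 against 0.37 and 10.59 RPM, and of EFNA5 0.99 and 2.23 against 0.02 and 1.0 RPM. In each of these 4 ligands TRPC2 2 was the higher TRPC2 library. For efna1a it was TRPC2 1, with 12.25 and 9.75 RPM in OMP and 16.18 and 8.27 in TRPC2, and on the TMM scale efna1a was higher in both TRPC2 libraries. Ephrin-A1 is a ligand of EphA2 in mammals. As shares of ephrin-A reads, efna1a stood at 10.7 and 9.38% in OMP and at 58.1 and 8.71% in TRPC2, and efna2a at 23.9 and 22.3% against 2.93 and 36.3%.

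Under each of the 4 scalings both OMP libraries were higher for efna5a and for 4 further ephrin-A genes. The gene efna1b had 15.32 and 12.68 against 4.29 and 3.24 RPM, and EFNA2_(2_of_2) had 5.76 and 4.41 against 2.08 and 2.50 RPM. For efna3b the values were 2.69 and 5.98 against 0.01 and 0 RPM, from 1 read in TRPC2, a ratio of 753 with a counting interval of 135 to 29800. The log2 fold change of efna3b was 8.59 with a standard error of 2.06 (edgeR, unadjusted p = 0.01, adjusted p = 0.0721). For EFNA4 they were 1.05 and 2.50 against 0.01 and 0.02 RPM, a ratio of 103 with a counting interval of 35.0 to 502 (log2 fold change 5.81, standard error 1.51, edgeR adjusted p = 0.0741). Both efna3b and EFNA4 passed the filter through the OMP libraries alone, and their p-values support nothing. Their log2 fold changes were 11.58 and 5.23 without TRPC2 1 and 7.74 and 6.46 without TRPC2 2.

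Of the 5 ephrin-B ligands 4 were higher in both OMP libraries (80.0%, against 53.3% of all genes). The summed level of the 5 ligands differed only 1.03-fold between the OMP libraries and 1.17-fold between the TRPC2 libraries. Ephrin-B2, the arterial partner of EphB4 and a ligand on many axons and their targets, had most of the reads. The RPM of efnb2a was 94.33 and 106.33 in OMP and 29.40 and 31.81 in TRPC2, a 3.28-fold ratio of means with libraries within 1.13-fold in OMP and 1.08-fold in TRPC2. In edgeR the log2 fold change of efnb2a was 0.93 with a standard error of 0.32 (edgeR, unadjusted p = 0.0373, adjusted p = 0.135), between 0.70 and 1.03 without single libraries. Against the all-gene median of 0.49 this is a smaller difference than the RPM ratio shows. DESeq2 gave efnb2a an adjusted p of 0.258. Limma on log2(RPM + 0.5) gave 0.0264 (log2 fold change 1.70), in a fit that called 23.5% of all genes tested higher in OMP. With library totals only the log2 fold change of efnb2a was 1.58 (edgeR adjusted p = 0.0574). The endothelial sums given above were also higher in OMP, and their part in efnb2a was not tested.

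The other ephrin-B ligands had fewer reads. The values of efnb2b were 7.02 and 3.11 against 0.79 and 1.3 RPM, and of efnb3b, named for a ligand of the spinal midline in the mouse, 10.94 and 6.14 against 0.40 and 0.97 RPM, a 12.5-fold ratio of means. Ephrin-B1 takes part in skull and neural crest development in mammals. The 2 OMP libraries held efnb1 at 0.80 and 1.21 RPM while neither TRPC2 library had a read of it. Set against a floor of 3 reads in each TRPC2 library, the ratio was 29.0. This floor covers neither the spread between libraries nor amplification, so the ratio is no firm bound. The log2 fold change of efnb1 was 9.33 with a standard error of 1.78 (edgeR, unadjusted p = 0.00797, adjusted p = 0.0721). It was 9.46 without TRPC2 1 and 9.51 without TRPC2 2. Like the genes above, efnb1 passed the filter through OMP alone, so its p-value supports nothing. The gene efnb3a stayed below a mean of 1 RPM in both classes and its classes overlapped.

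Summed over a class of genes, ligands of class B and receptors of class A were higher in both OMP libraries by RPM and on the TMM scale, as were ligands of class A by RPM but not on the TMM scale, while receptors of class B overlapped. Summed RPM of ephrin-B ligands was 114 and 117 in OMP against 30.6 and 35.7 in TRPC2, a 3.49-fold ratio of means. Summed EphA receptors were at 157 and 137 against 73.7 and 58.0 RPM, a 2.23-fold ratio, again with no overlap. Summed ephrin-A ligands were at 115 and 104 against 27.8 and 94.9 RPM, a 1.78-fold ratio whose log2 of 0.83 became 0.20 without TRPC2 1 and 1.97 without TRPC2 2. Summed EphB receptors were at 78.6 and 55.7 against 35.7 and 90.3 RPM, and overlapped, with a log2 ratio of 0.09 that became -0.43 without TRPC2 1 and 0.91 without TRPC2 2.

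The scale of the libraries moved these ratios. On the TMM scale the ratio of ephrin-B ligands was 2.02 and that of EphA receptors 1.3, with no overlap in either, while that of ephrin-A ligands was 1.01 and that of EphB receptors 0.609, both with overlap. All 43 genes together summed to 521 and 492 RPM in OMP against 195 and 297 RPM in TRPC2, a ratio of 2.06 by RPM and of 1.19 on the TMM scale. No test was made of these sums.

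**Figure D3:**
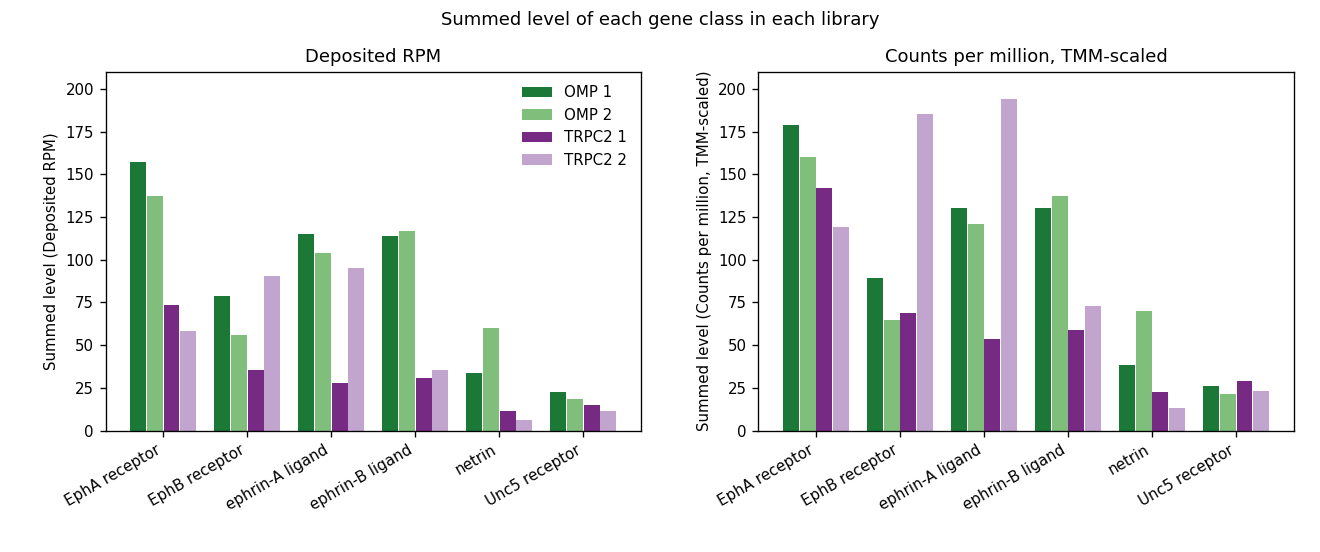
Summed level of 6 gene classes in each of the 4 libraries, as deposited RPM on the left and as CPM over TMM-scaled library sizes on the right; bars start at 0 and each bar is 1 library. EphA receptors, ephrin-B ligands and netrins are higher in both OMP libraries in both panels, whereas the EphB bars of OMP and TRPC2 overlap in both panels.

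Shares within a library gave the balance of classes free of that scale. Receptors made up 50.8 and 46.5% of Eph and ephrin reads in OMP and 65.2 and 53.2% in TRPC2, so both TRPC2 libraries had the larger share of receptors, TRPC2 2 by a few percentage points. Genes of class A made up 58.5 and 58.2% of these reads in OMP and 60.5 and 54.8% in TRPC2, a range of a few percentage points in which the OMP libraries lay between the TRPC2 libraries. EphB genes made up 33.4 and 28.9% of receptor reads in OMP and 32.6 and 60.9% in TRPC2. Ephrin-B genes made up 49.9 and 53.0% of ephrin reads in OMP and 52.4 and 27.3% in TRPC2. Hence TRPC2 1 had nearly the balance of the OMP libraries in both respects, and TRPC2 2 stood apart with more EphB receptor and less ephrin-B. Shares rest on reads, which a longer transcript can yield in larger number, so they compare libraries and not one gene with another.

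**Figure D4:**
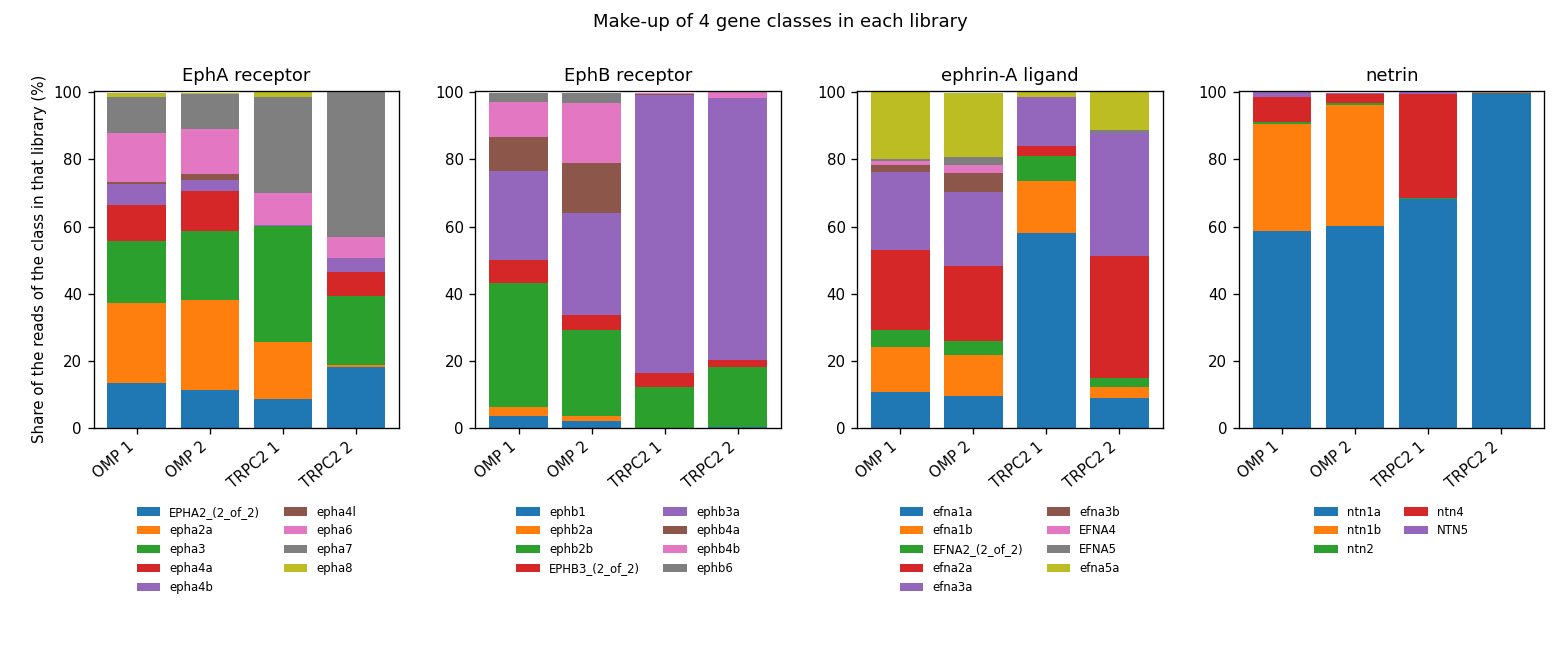
Share of the reads of a class held by each of its genes, in percent, for EphA receptors, EphB receptors, ephrin-A ligands and netrins; each stacked bar is 1 library. In the EphB panel ephb3a fills 82.8 and 78.1% of the TRPC2 bars and 26.6 and 30.6% of the OMP bars, and in the netrin panel ntn1b fills 31.9 and 36.2% of the OMP bars against 0 and 0.184% of the TRPC2 bars.

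Of the 5 netrins 4 were higher in both OMP libraries (80.0%, against 53.3% of all genes), and ntn1b was seen in OMP neurons with a single read in TRPC2. The pair ntn1a and ntn1b are the zebrafish copies of netrin-1, the attractant made by the floor plate. The RPM of ntn1b was 10.71 and 21.72 in OMP, from 1157 and 2419 reads, and 0 and 0.01 in TRPC2, from 0 and 1 read. The ratio of ntn1b was 2810 with a counting interval of 505 to 111000. Its log2 fold change was 10.44 with a standard error of 1.68 (edgeR, unadjusted p = 0.00199, adjusted p = 0.0721). It passed the filter through the OMP libraries alone, and that filter itself placed ntn1b higher in OMP, so its p-value supports nothing. The log2 fold change of ntn1b was 9.37 without TRPC2 1 and 13.53 without TRPC2 2.

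The other copy was present in both classes. For ntn1a the values were 19.70 and 36.03 against 8.01 and 6.43 RPM, a 3.86-fold ratio of means, with a log2 fold change of 1.17 and a standard error of 0.56 (edgeR adjusted p = 0.249). Of all netrin reads ntn1b held 31.9% (30.4 to 33.4%) and 36.2% (35.1 to 37.4%) in OMP, but 0% (0 to 0.355%) and 0.184% (0.00466 to 1.02%) in TRPC2. The sums of skin and red blood cell genes given above were also lower in TRPC2, as was that of brain and glia genes. Of the brain and glia genes 7 of 13 were higher in both OMP libraries (53.8%, against 53.3% of all genes). Most of their OMP sum came from fabp7a (852.31 and 866.11 against 56.38 and 36.69 RPM) and slc1a3b (266.88 and 290.92 against 29.41 and 0.06 RPM). The part of these other cells in ntn1b was not tested.

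Summed netrins came to 33.6 and 59.9 against 11.7 and 6.44 RPM, a ratio of 5.15 by RPM and of 3.02 on the TMM scale, the largest of the 6 summed classes on both. Netrin-4 is a netrin of basement membranes, and ntn4 had 2.54 and 1.68 RPM in OMP neurons against 3.63 and 0 RPM in TRPC2 neurons, so the 2 TRPC2 libraries held its highest and its lowest value. The genes ntn2 and NTN5 were below a mean of 1 RPM in both classes. For ntn2 the values were 0.20 and 0.30 against 0.02 and 0 RPM, a ratio of 21.6 with a counting interval of 5.71 to 183 (log2 fold change 3.58, standard error 1.22, edgeR adjusted p = 0.13), again through the filter by OMP alone.

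Reads of Unc5 receptors, which carry the repulsive response, summed to 22.8 and 18.2 RPM in OMP against 15.1 and 11.4 in TRPC2, a ratio of 1.55 by RPM that became 0.901 on the TMM scale. The gene behind the sum differed between the TRPC2 libraries. Unc5b is known for its part in vessel branching as well as axon repulsion in the mouse, and unc5b had 12.30 and 9.82 RPM in OMP and 3.67 and 10.90 in TRPC2. It held 53.9 and 53.9% of Unc5 reads in OMP but 24.2% in TRPC2 1 and 96.0% in TRPC2 2. For unc5da, 1 of 2 copies of Unc5d, the values were 6.23 and 4.88 against 10.83 and 0.04 RPM, and its shares were 27.3 and 26.8% against 71.5 and 0.313%. The log2 fold change of unc5b was -0.21 with a standard error of 0.82 (edgeR adjusted p = 0.904), and it ran from -0.94 to 0.85 without single libraries, where leaving out TRPC2 2 gave 0.85.

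Both OMP libraries were higher for unc5a, with 2.12 and 1.68 against 0 and 0.23 RPM, and, except on the TMM scale, for unc5c, with 1.14 and 0.90 against 0.62 and 0.02 RPM. The row UNC5C_(2_of_2) had 0.39 and 0.22 RPM in OMP neurons against no read in either TRPC2 library. Set against a floor of 3 reads in each TRPC2 library the ratio was 8.66, which again leaves out the spread between libraries. The log2 fold change of UNC5C_(2_of_2) was 7.60 with a standard error of 1.33 (edgeR, unadjusted p = 0.0059, adjusted p = 0.0721). It was 7.73 without TRPC2 1 and 7.78 without TRPC2 2. This row passed the filter through OMP alone, so its p-value supports nothing. DCC, the attractive receptor for netrin, was at 0.56 and 0.15 RPM in OMP and 0.63 and 0.60 RPM in TRPC2, from 61, 17, 56 and 51 reads. Both TRPC2 libraries were higher by a margin smaller than the gap between the OMP libraries, and on the scale of gene totals the classes overlapped. For DCC the log2 fold change was -1.58 with a standard error of 1.2 (edgeR adjusted p = 0.462).

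Neogenin, a relative of DCC that binds netrins and repulsive guidance molecules, is encoded by 2 zebrafish genes. For neo1a the values were 73.53 and 51.48 RPM in OMP against 33.27 and 36.24 in TRPC2, and for neo1b 20.20 and 9.13 against 25.34 and 8.55 RPM. Unc5 genes made up 19.5 and 23.1% of the reads of Unc5, DCC and neogenin in OMP and 20.4 and 20.0% in TRPC2, so this share differed little among the 4 libraries. The classes of the 2 zebrafish copies of DSCAM, an adhesion molecule reported as a netrin receptor, lay in opposite order by RPM. The values of dscama were 64.39 and 42.42 against 27.83 and 18.85 RPM (log2 fold change 0.41, standard error 0.42, edgeR adjusted p = 0.585). Those of dscamb were 16.94 and 7.01 against 32.25 and 24.26 RPM (log2 fold change -2.02, standard error 0.58, edgeR adjusted p = 0.0911). The log2 fold changes of dscama and of neo1a (0.06) lay below the all-gene median of 0.49.

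Among further ligands and netrin relatives, draxin, rgma, rgmb and ntng2b were higher in both OMP libraries by RPM, as were 53.3% of all genes, and ntng1a overlapped. The edgeR log2 fold changes of draxin (0.26) and rgma (0.35) lay below the all-gene median of 0.49, and that of rgmb (1.90) above it. Draxin, which binds DCC and netrin, had 22.84 and 21.00 against 19.26 and 2.46 RPM. The neogenin ligand rgma had 41.92 and 37.26 against 5.57 and 29.66 RPM, and rgmb had 9.55 and 9.75 against 0.87 and 2.1 RPM. Netrin-G proteins are membrane-anchored relatives of netrins that do not bind DCC. The values of ntng1a were 5.30 and 0.61 against 0 and 7.65 RPM. Those of ntng2b were 0.48 and 0.43 against 0.01 and 0 RPM (log2 fold change 5.33, standard error 1.25, edgeR adjusted p = 0.0721). With 1 read in TRPC2, ntng2b passed the filter through the OMP libraries alone, so its p-value supports nothing and its fitted fold change is no bound.

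Signalling partners of Eph receptors and ephrins include kinases, adaptors and phosphatases. Of a list of 40 such genes 39 were tested, 0 passed the adjusted threshold, and at an unadjusted p under 0.05 there were 5 with OMP higher and 3 with TRPC2 higher (23.3% and 7.18% of all genes tested), with a median log2 fold change of 0.02 beside the all-gene median of 0.49. Their summed RPM was 1300 and 1320 in OMP against 1070 and 993 in TRPC2. The smallest p-values with OMP higher belonged to abl1, a kinase of actin dynamics (3.06 and 1.05 against 0.01 and 0.01 RPM), and nck1a, an adaptor (16.78 and 19.84 against 2.21 and 1.51 RPM). Those with TRPC2 higher belonged to the phosphatase genes ptpn11b (10.41 and 15.19 against 19.33 and 42.76 RPM) and ptpn11a (52.34 and 48.67 against 64.90 and 54.61 RPM). The classes of these 4 genes did not overlap, and their edgeR adjusted p-values lay between 0.0721 for abl1 and 0.103 for ptpn11a. Of the 5 partners with OMP higher, 3 had passed the filter through the OMP libraries alone, so their p-values support nothing. One of these was abl1, with 1 read in each TRPC2 library.

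Of 30 listed partners of netrin signalling, which include the neogenin, DSCAM, draxin, RGM and netrin-G genes above, 29 were in the table and 27 were tested. None passed the adjusted threshold, and an unadjusted p under 0.05 was found for 4 with OMP higher and 3 with TRPC2 higher (23.3% and 7.18% of all genes tested). Of the 4 with OMP higher, 1 (ntng2b) had passed the filter through the OMP libraries alone. The median log2 fold change of the 27 was 0.35. Besides ntng2b, those higher in OMP with the smallest p-values were triob, an exchange factor for Rac (22.07 and 16.36 against 2.31 and 1.58 RPM, edgeR adjusted p = 0.0852), and flrt3, an adhesion molecule that binds Unc5 receptors (51.50 and 31.93 against 6.81 and 1.21 RPM, edgeR adjusted p = 0.143). Besides dscamb, those higher in TRPC2 were ablim1a, an actin-binding protein (15.33 and 13.83 against 18.65 and 39.53 RPM, edgeR adjusted p = 0.102), and pak1, a kinase downstream of Rac (30.76 and 22.42 against 31.27 and 33.76 RPM, edgeR adjusted p = 0.143). The Golgi gene unc50 was at 24.57 and 22.50 against 32.82 and 21.24 RPM, and overlapped.

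The error behind these values lay mainly in the TRPC2 class. Among the 22 receptors and ligands with a mean of 1 RPM or more in both classes, the absolute log2 ratio of 1 library to the other of its class had a median of 0.31 and a highest value of 1.15 in OMP, against a median of 1.17 and a highest value of 6.29 in TRPC2. The TRPC2 libraries differed by over 2 log2 units for 8 of the 22 (36.4%), as they did for 30.7% of 11866 genes of the table at such a level, and the OMP libraries for 0 of the 22 and 0.784% of the 11866. The guidance genes thus varied about as much as other genes did. Over the 43 receptors and ligands the rank correlation of 1 library with the other was 0.94 in OMP and 0.65 in TRPC2, a description over genes that share libraries. Of the 43, 43 had a read in both OMP libraries and 30 in both TRPC2 libraries, while 13 lacked a read in at least 1 TRPC2 library. By counting error alone, a count of 0 allows up to 0.0339 RPM in TRPC2 1 and 0.0356 RPM in TRPC2 2.

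**Figure D5:**
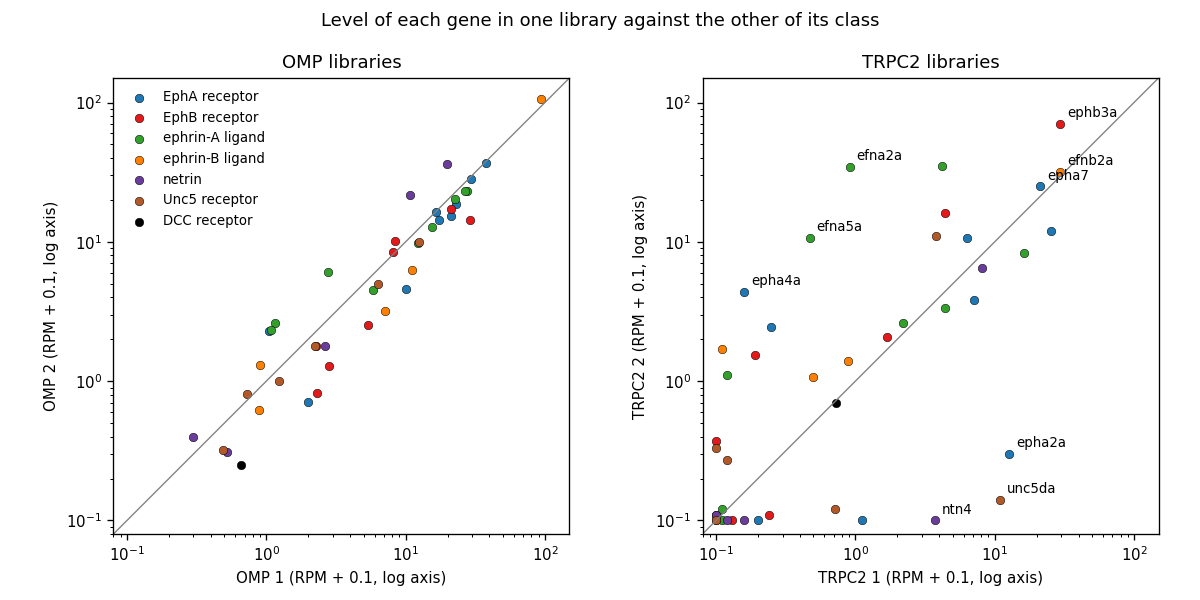
RPM + 0.1 of each of the 43 receptors and ligands in 1 library against the other library of its class, on log axes, with the line of equal values; colors are gene classes. OMP points lie near the line, and TRPC2 points scatter, with epha4a and efna2a above the line and epha2a, unc5da and ntn4 below it.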

How the data were processed

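Reads were mapped by the authors to zebrafish genome GRCz10 with STAR and counted per gene with VERSE. Software versions, gene annotation and strandedness are not given in the paper or labels used here, so reads of overlapping or antisense genes and of near-identical copies may be shared. The deposited values are whole-number counts per gene and RPM, which the authors made from the counts by dividing by a total per library that exceeds the sum over genes (gene counts were 56.0 to 75.9% of it). The labels call the libraries biological replicates, and p-values measure the spread between 2 libraries a class.

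Counts of all genes were compared with edgeR 4.0.16 in R 4.3.3 (TMM, filterByExpr by class, glmQLFTest, a design with class alone, p-values adjusted by Benjamini-Hochberg), and the fit was tested on simulated data. The simulated counts had the same spread in all 4 libraries, so they cannot show how the fit behaves where TRPC2 libraries spread more than OMP libraries. Standard errors given with edgeR are the absolute log2 fold change divided by the square root of its quasi-likelihood F statistic. DESeq2 1.42.0 and limma 3.58.1 were alternatives. Intervals of shares are Clopper-Pearson at 95%, and floors are 3 reads. The 4 scalings are RPM, counts over gene totals with or without red blood cell genes, and TMM-scaled library sizes. Full statistics (log2 fold change, standard error and edgeR adjusted p) were given to guidance genes with an unadjusted p under 0.05. They were also given to the gene with the highest mean in each class, and RPM per library to genes with a mean of 1 RPM or more. From each list of partners the 3 genes with the smallest p in each direction were named, beside neogenin, DSCAM, draxin, RGM and netrin-G genes, and 1 Eph and ephrin partner in each direction is not reported here. Members and lists were chosen with earlier results of these data known. Eye and lens genes (11 of 11) summed to 80.6 and 133 RPM in OMP against 10.2 and 12.0 in TRPC2, and motile cilia genes (8 of 11) to 438 and 572 against 49.1 and 66.1. Ciliated OSN genes (7 of 10) summed to 523 and 644 against 94.9 and 77.0, and microvillous OSN genes (8 of 8) to 9210 and 9550 against 15900 and 9940. Most of each microvillous sum was pvalb5 (7997.11 and 8387.9 against 10130.22 and 6647.29 RPM), which overlapped. In that list 4 genes were higher in both TRPC2 libraries and 1, gnaia, in both OMP libraries.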

Additional observations from a re-analysis of the deposited data

How the results depend on the processing

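With the adjusted threshold edgeR called 0 guidance genes in either direction. The count higher in OMP was 1 (ntn1b, adjusted p = 0.00852) with the replicate block, 8 with DESeq2, 12 and 11 with limma at pseudocounts of 0.5 and 0.1 RPM, and 0 to 23 without single libraries, and the count higher in TRPC2 was 2 with DESeq2 and 0 to 6 without single libraries. At an unadjusted p the OMP count of 10 became 6 with at least 100 counts in 2 libraries, 5 with the replicate block, 21 and 20 with limma, and 1 to 27 without single libraries. The TRPC2 count of 2 became 1 with library totals only, 1 with the replicate block, 0 and 0 with limma, and 1 to 7 without single libraries. The cause was not tested. Over genes, the deviations of same-numbered libraries from their class means had a correlation of 0.00869. With TRPC2 libraries that differ this widely, that value cannot tell whether same-numbered libraries shared a batch, and the labels do not say. The replicate block gave 329 and 268 calls over all 21026 genes. The count of genes higher in both TRPC2 libraries was 5 on the TMM scale.

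The log2 ratio of sums moved on the TMM scale from 1.16 to 0.38 for EphA, from 0.09 to -0.72 for EphB, from 1.80 to 1.01 for ephrin-B (1.68 over gene totals), from 2.36 to 1.60 for netrins, from 0.63 to -0.15 for Unc5 and from 1.04 to 0.25 for all 43 genes. Without single libraries it ran from -0.43 to 0.91 for EphB, 0.20 to 1.97 for ephrin-A, 1.70 to 1.92 for ephrin-B, -2.04 to -0.14 for DCC (-0.79 with all) and 0.77 to 1.37 for all 43. The log2 fold change of efna2a was -0.31, and 0.57 with library totals only, 1.44 with the replicate block, 1.93 and 2.17 with limma, and -1.41 to 4.21 without single libraries. That of unc5b was -0.21, and 0.57, 0.01, 0.74, 0.78 and -0.94 to 0.85 under the same alternatives. Over all genes the median log2 fold change was 0.49 under TMM, 0.36 when size factors of DESeq2 were used and 1.13 when library totals alone were used. Of the alternative fits of the 17 genes given full statistics that gave an adjusted p, 153 kept their direction and side of the threshold. Another 51 (14 genes) kept their direction and passed it. The other 10 (2 genes) turned direction and were not sorted by the threshold. Without red blood cell genes edgeR again gave 0 and 0 adjusted and 10 and 2 unadjusted calls, against 0 and 0, and 5001 and 1522, of 21172 genes. Levels per kilobase were not run, as transcript lengths of the GRCz10 annotation were not used here. Levels under 0.0356 RPM in TRPC2 could not be told from 0.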
